A study of Mus musculus with 6 samples.

Results

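The Egr, Nr4a and Ier genes, with Btg2, were followed as a set of 10 immediate early genes in bulk RNA sequencing of splenic endothelial cells from mice given an antisense oligonucleotide (ASO) against Mlkl or a control ASO. The members were Egr1, Egr2, Egr3, Nr4a1, Nr4a2, Nr4a3, Ier2, Ier3, Ier5 and Btg2. They were found by symbol, and all 10 were among the 23207 gene symbols of the deposited count table. All 10 also passed the filter on low counts. All 6 mice were Apoe-knockout animals, which develop atherosclerosis, and all received 8 weeks of ASO together with a high cholesterol diet. The MLKL ASO group held 3 mice (1603, 1604 and 1607), labelled as Mlkl knockdown, and the control ASO group held 3 mice (1601, 1602 and 1608), with 1 library per mouse. An ASO binds its target RNA by base pairing and reduces it, and Mlkl encodes the protein that ruptures the plasma membrane in necroptosis, an inflammatory form of cell death. The sources used here give neither age nor sex, cell isolation method, number of cells or ASO sequence.

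Immediate early genes are transcribed within minutes of a stimulus without new protein synthesis. Growth factors, cytokines, shear stress, calcium and cAMP act on them through serum response factor with its ternary complex partners and through CREB, and the mRNAs are short-lived. In endothelium they respond to thrombin, VEGF and flow, and in lymphocytes to antigen receptor signalling. Egr1, Egr2 and Egr3 encode zinc finger transcription factors. Nr4a1, Nr4a2 and Nr4a3 encode orphan nuclear receptors that act without a known physiological ligand. Ier2 and Ier5 encode related nuclear proteins, Ier3 a stress-induced protein that modulates survival and NF-κB signalling, and Btg2 an antiproliferative protein that recruits the deadenylase complex and is a target of p53.

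The promoters of 5 members are shown because the Nr4a windows share a number of matches that few windows of this kind hold, and the Egr2 and Btg2 windows hold other elements of immediate early control. RefSeq windows from 250 bases before to 50 bases after a transcript start (build GRCm38.p6) were at hand for 7 of the 10 members and covered 11 starts, 5 of them of Egr2. Of each window, the bases before the start and before any annotated exon of the gene are printed 5′ to 3′ on the gene's strand. Capitals mark the CArG box, the binding site of serum response factor, and TGACG on either strand, the core of the cAMP response element. A full element, TGACGTCA, contains 2 overlapping cores.
Egr2: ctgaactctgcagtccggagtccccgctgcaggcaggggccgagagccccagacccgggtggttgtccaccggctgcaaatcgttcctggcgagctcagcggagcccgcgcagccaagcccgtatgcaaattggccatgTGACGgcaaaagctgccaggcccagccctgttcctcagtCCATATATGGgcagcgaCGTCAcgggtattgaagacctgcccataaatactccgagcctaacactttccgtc
Nr4a1: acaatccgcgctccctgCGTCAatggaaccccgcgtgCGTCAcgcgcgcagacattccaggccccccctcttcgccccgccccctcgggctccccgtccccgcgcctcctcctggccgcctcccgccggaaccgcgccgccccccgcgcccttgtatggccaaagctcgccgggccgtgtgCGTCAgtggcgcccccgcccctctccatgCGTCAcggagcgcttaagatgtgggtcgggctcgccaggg
Nr4a2: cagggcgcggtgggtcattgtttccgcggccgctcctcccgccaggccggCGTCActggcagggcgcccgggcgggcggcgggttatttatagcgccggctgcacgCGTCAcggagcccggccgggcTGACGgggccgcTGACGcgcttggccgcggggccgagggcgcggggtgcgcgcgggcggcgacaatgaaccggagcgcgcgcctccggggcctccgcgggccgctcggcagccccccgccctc
Nr4a3: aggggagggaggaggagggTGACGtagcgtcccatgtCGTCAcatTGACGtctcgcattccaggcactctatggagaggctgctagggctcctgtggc
Btg2: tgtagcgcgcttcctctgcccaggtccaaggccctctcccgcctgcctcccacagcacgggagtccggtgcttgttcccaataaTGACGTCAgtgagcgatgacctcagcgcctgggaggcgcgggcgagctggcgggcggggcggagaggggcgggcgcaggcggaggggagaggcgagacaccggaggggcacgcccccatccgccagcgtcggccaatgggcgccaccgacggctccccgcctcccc
These stretches are chr10:67537619-67537868 on the plus strand for Egr2, chr15:101266596-101266845 on the plus strand for Nr4a1, chr2:57124004-57124253 on the minus strand for Nr4a2, chr4:48045055-48045152 on the plus strand for Nr4a3, and chr1:134079156-134079405 on the minus strand for Btg2. The windows of Nr4a1, Nr4a2 and Nr4a3 each held 4 cores, of which the last in Nr4a3 lies past the printed stretch. At least 4 cores were present in 0.231% of 32851 RefSeq windows of this length, and at least 1 core in 20.8%. The cut of 4 is the number seen in the Nr4a windows, and the RefSeq windows were not matched for base composition. The Egr2 window shown held 1 CArG box, 72 to 63 bases before the start, and 2 cores, and a CArG box was found in 1.63% of all windows. Of the 5 Egr2 windows, which partly overlap, 4 held a CArG box, 3 held cores and 1 held no match. The 3 windows with cores overlap and share the same CArG box and the same 2 cores. The Btg2 window held 1 full element, as did 1.79% of all windows. No match to these motifs was found in the windows of Ier3 and Ier5. A match is a string of letters and not a measured binding site.

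**Figure D1:**
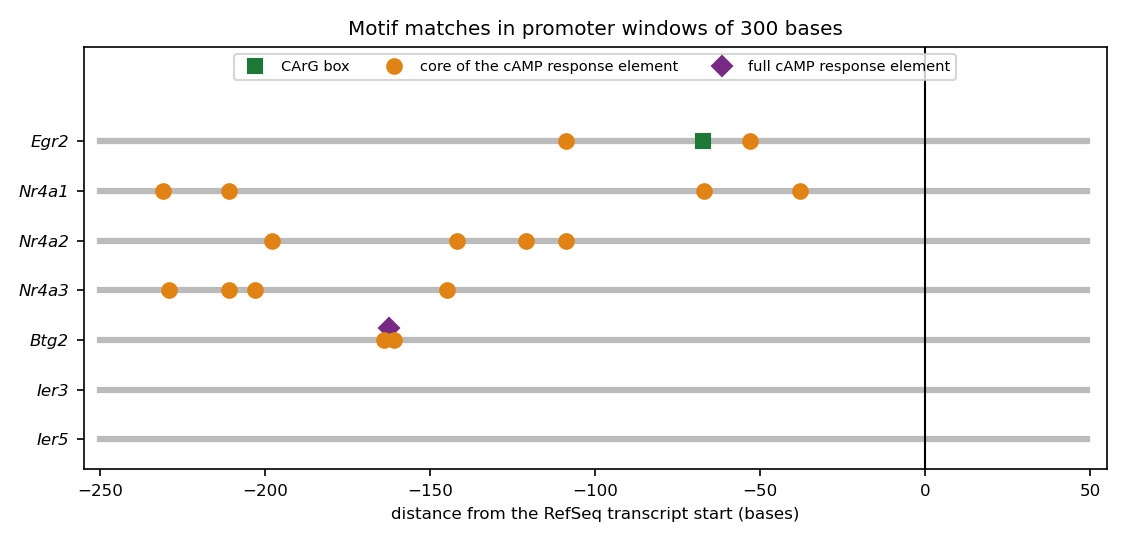
Positions of motif matches (symbols) in RefSeq promoter windows of 7 members (grey bars), with the distance from the transcript start in bases on the horizontal axis and the transcript start at 0. Nr4a1, Nr4a2 and Nr4a3 each carry 4 cores of the cAMP response element, the Egr2 window shown (1 of 5) a CArG box and 2 cores, Btg2 a full element, and Ier3 and Ier5 no match.

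Library totals ran from 59988846 to 85724084 estimated counts in MLKL ASO mice and from 67699450 to 87776706 in control ASO mice, and no member had fewer than 194 estimated counts in any library. Mlkl measured 7.52, 5.80 and 3.73 CPM (counts scaled for library size by TMM) in MLKL ASO mice 1603, 1604 and 1607, against 30.1, 31.5 and 38.7 CPM in control ASO mice 1601, 1602 and 1608, so the target followed the labels in each of these mice. All 12 endothelial markers were detected in every library, with a summed level of 3222 to 3473 CPM in MLKL ASO mice and 2611 to 4851 CPM in control ASO mice. Blood cell RNA was present as well. The summed level of 10 T and NK cell markers was 135, 170 and 156 CPM in mice 1603, 1604 and 1607, against 495, 278 and 214 CPM in mice 1601, 1602 and 1608, without overlap. The sum of 8 B cell markers was 688 to 1115 CPM in MLKL ASO mice and 992 to 2168 CPM in control ASO mice, and was highest in mouse 1601. Mouse 1608 stood apart with 103 CPM of megakaryocyte and platelet markers, where the other mice had 1055 to 2779 CPM. In bulk RNA, fewer cells of a type and less RNA per cell cannot be told apart.

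Every member had a lower fitted level in MLKL ASO mice than in control ASO mice, and none passed the threshold of edgeR's quasi-likelihood test (adjusted p under 0.05). The log2 fold changes ran from -0.93 for Egr1 to -0.18 for Ier5 with a median of -0.62, while the median over all 19741 genes tested was -0.016. A value below 0 was found for 10 of 10 members and for 52.0% of all genes. Members and all lists below were chosen with earlier results of these data known, so their counts beside all genes are a description. With edgeR 0 members were called lower and 0 higher, where 0.00507% of all genes were called in each direction. Mlkl did not pass in edgeR either, with a log2 fold change of -2.56 (edgeR adjusted p = 0.0666). Its DESeq2 adjusted p was 2.11e-15. At an unadjusted p under 0.05, 6 members were lower, as were 7.13% of all genes. DESeq2 called 2 members lower, Ier2 and Nr4a1, beside 1.33% of all genes, and limma-voom with sample weights called Ier2 alone, beside 0.0760%. The authors' deposited table calls the same 2 members lower as DESeq2 did here, beside 0.941% of its genes. In 6 members every MLKL ASO mouse lay below every control ASO mouse, which was so for 1975 of the 19741 genes tested (10%). These 6 were Egr1, Egr2, Nr4a1, Nr4a2, Ier2 and Btg2. When libraries were scaled to their endothelial markers in place of TMM, all 10 members remained below 0, but the groups stayed apart in 2 members only, Egr2 and Ier2, beside 3.75% of all genes.

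**Figure D2:**
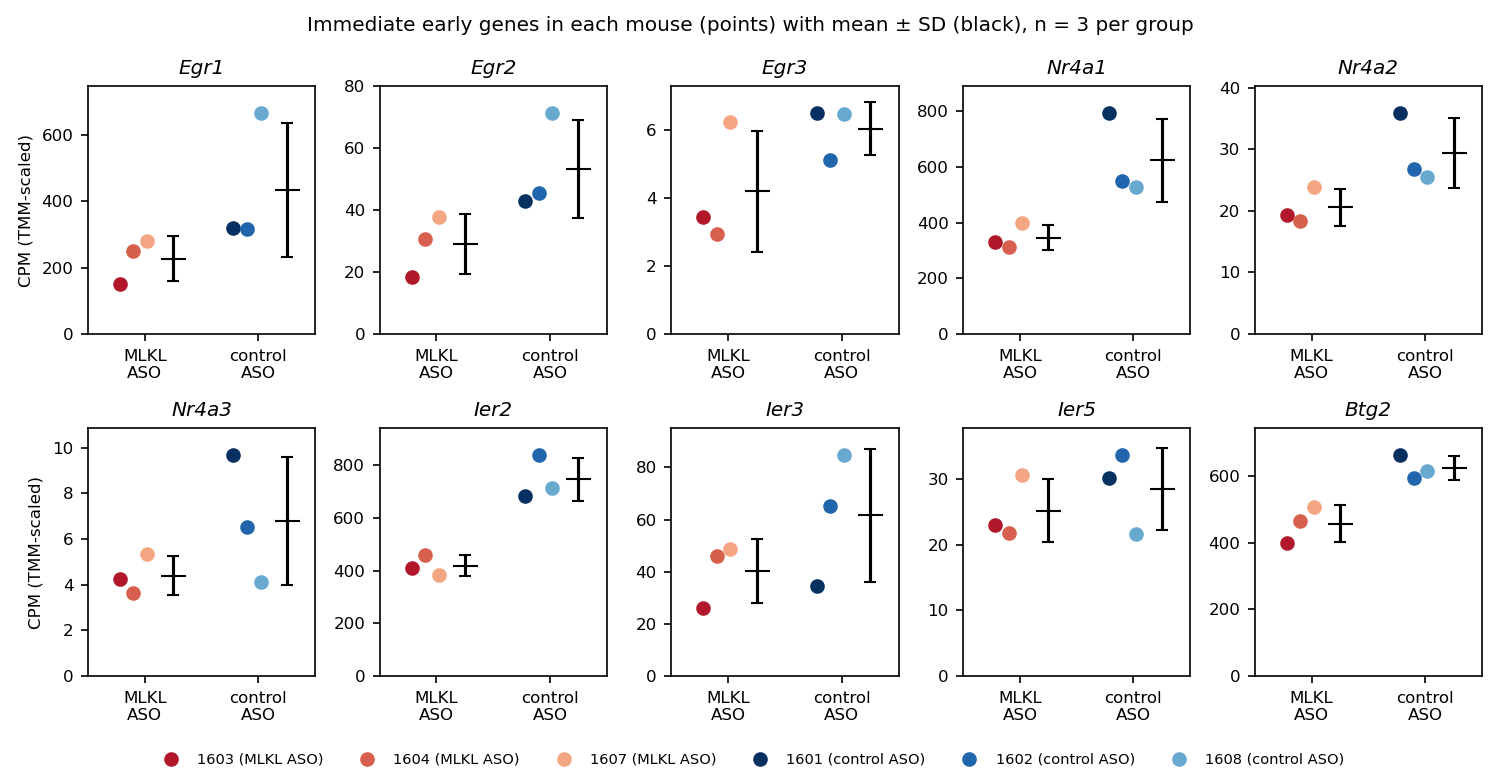
Level of each member in CPM (vertical axes, starting at 0) in each mouse (coloured points), MLKL ASO at left and control ASO at right, with the mean and SD of 3 mice in black. Groups are apart for Egr1, Egr2, Nr4a1, Nr4a2, Ier2 and Btg2 and overlap for Egr3, Nr4a3, Ier3 and Ier5.

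Ier2 separated the groups most evenly. It measured 410, 461 and 383 CPM in MLKL ASO mice 1603, 1604 and 1607, against 684, 840 and 713 CPM in control ASO mice 1601, 1602 and 1608. The groups lay well apart, and within either group the highest mouse was at most 1.23 times the lowest. Means were 418 ± 39.8 CPM with the MLKL ASO and 746 ± 83.2 CPM with the control ASO (SD, n = 3 each). The log2 fold change was -0.83 ± 0.13 (SE, edgeR adjusted p = 0.146), and it stayed between -0.91 and -0.74 when any mouse was left out. Its exact two-sided permutation p was 0.1, below which 3 mice against 3 cannot go. DESeq2 gave an adjusted p of 5.92e-05 and limma-voom with sample weights an adjusted p of 0.0494. In the authors' deposited table the log2 fold change of Ier2 is -0.77 (adjusted p = 0.00163).

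Ier3 and Ier5 overlapped between the groups. Ier3 measured 26.1, 46.0 and 48.9 CPM with the MLKL ASO (mice 1603, 1604 and 1607), against 34.5, 65.4 and 85.0 CPM with the control ASO (mice 1601, 1602 and 1608). Control mouse 1601 lay below 2 of the MLKL ASO mice. Its log2 fold change was -0.61 ± 0.36 (SE, edgeR adjusted p = 0.544), and without mouse 1608 it was -0.31. Ier5 had 23.1, 21.7 and 30.7 CPM with the MLKL ASO, against 30.1, 33.7 and 21.7 CPM with the control ASO. Its highest and its lowest value were both in control mice, and its log2 fold change was -0.18 ± 0.21 (SE, edgeR adjusted p = 0.782). It was nearest to 0 of the 10 members, with -0.35 without mouse 1608 and -0.045 without mouse 1602. The count ratio of Ier3 to Ier2 within a mouse, which does not depend on library scaling, was 0.0636 to 0.128 in MLKL ASO mice and 0.0504 to 0.119 in control ASO mice, with overlap.

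Egr1, the best known of the Egr factors and a regulator of growth factor and tissue factor genes in endothelium, measured 152, 251 and 280 CPM in MLKL ASO mice 1603, 1604 and 1607, against 318, 315 and 667 CPM in control ASO mice 1601, 1602 and 1608. The groups were apart by a small gap, and control mouse 1608 held 2.12 times the level of control mouse 1602. Means were 228 ± 67.3 CPM with the MLKL ASO and 434 ± 202 CPM with the control ASO (SD, n = 3 each), and the exact two-sided permutation test gave p = 0.1. The log2 fold change was -0.93 ± 0.35 (SE, edgeR adjusted p = 0.379). Without mouse 1608 it was -0.48, with an adjusted p of 0.397 in edgeR.

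Egr2 had the same order of mice at both ends. Its levels were 18.5, 30.6 and 37.9 CPM with the MLKL ASO, against 43.0, 45.5 and 71.5 CPM with the control ASO, again without overlap and highest in mouse 1608. The log2 fold change was -0.88 ± 0.30 (SE, edgeR adjusted p = 0.360), and -0.61 without mouse 1608. Egr1 and Egr2 kept a narrow count ratio to each other, 7.38 to 8.19 in MLKL ASO mice and 6.93 to 9.33 in control ASO mice, although Egr1 itself varied 4.40-fold over the 6 mice. Egr3 had 3.43, 2.92 and 6.23 CPM with the MLKL ASO, against 6.51, 5.13 and 6.46 CPM with the control ASO. MLKL ASO mouse 1607 lay among the controls, and the log2 fold change of -0.52 ± 0.32 (SE, edgeR adjusted p = 0.565) was -0.92 without that mouse and -0.32 without mouse 1604.

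Nr4a1, induced in lymphocytes by antigen receptor signals and in endothelium by VEGF, measured 330, 311 and 398 CPM in MLKL ASO mice 1603, 1604 and 1607, against 796, 548 and 530 CPM in control ASO mice 1601, 1602 and 1608. The groups did not overlap, and here the highest mouse was 1601 and not 1608. Means were 346 ± 46.0 CPM with the MLKL ASO and 625 ± 149 CPM with the control ASO (SD, n = 3 each), with an exact two-sided permutation p of 0.1. Its log2 fold change was -0.85 ± 0.19 (SE, edgeR adjusted p = 0.270, DESeq2 adjusted p = 0.0160), and it lay between -0.96 and -0.63 when any mouse was left out. In the authors' deposited table it is -0.80 (adjusted p = 0.0385).

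Nr4a2, a nuclear receptor best known from dopaminergic neurons, had 19.4, 18.4 and 23.9 CPM with the MLKL ASO, against 36.0, 26.7 and 25.5 CPM with the control ASO. The groups were apart, again with mouse 1601 at the top, and the log2 fold change was -0.52 ± 0.18 (SE, edgeR adjusted p = 0.368) and -0.34 without mouse 1601. Nr4a3, the family member with the lowest counts, had 4.26, 3.62 and 5.32 CPM with the MLKL ASO, against 9.69, 6.51 and 4.11 CPM with the control ASO. The groups overlapped through control mouse 1608, and the log2 fold change of -0.62 ± 0.34 (SE, edgeR adjusted p = 0.515) was -0.27 without mouse 1601 and -0.89 without mouse 1608. The count ratio of Nr4a1 to Nr4a2 was 17.0, 16.9 and 16.7 in MLKL ASO mice 1603, 1604 and 1607, against 22.1, 20.5 and 20.8 in control ASO mice 1601, 1602 and 1608. It did not overlap between the groups. It was picked from 5 ratios after their values were seen, and is given with no test.

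Btg2 had the narrowest spread over all mice apart from Ier5. It measured 398, 467 and 508 CPM in MLKL ASO mice 1603, 1604 and 1607, against 665, 594 and 616 CPM in control ASO mice 1601, 1602 and 1608. The groups did not overlap, and the highest mouse was 1.67 times the lowest. Means were 458 ± 55.5 CPM with the MLKL ASO and 625 ± 36.6 CPM with the control ASO (SD, n = 3 each, exact two-sided permutation p = 0.1). The log2 fold change was -0.45 ± 0.12 (SE, edgeR adjusted p = 0.325) and ranged from -0.53 to -0.36 when any mouse was left out.

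Over the members, a control ASO mouse held the highest value in 10 of 10, mouse 1601 in 5, mouse 1608 in 3 and mouse 1602 in 2. An MLKL ASO mouse held the lowest value in 9 of 10, with Ier5 as the exception. For the members whose groups do not overlap, these traits follow from that separation. The share of all genes with either trait was not computed, so these counts are a description. Egr1, Egr2 and Ier3 peaked in mouse 1608, and the 3 Nr4a genes with Egr3 and Btg2 in mouse 1601. The count ratio of Egr1 to Nr4a1 was 0.460, 0.805 and 0.703 in MLKL ASO mice 1603, 1604 and 1607, against 0.399, 0.575 and 1.26 in control ASO mice 1601, 1602 and 1608. It spanned the whole range within the control group and overlapped between the groups. All members together took 0.143%, 0.156% and 0.178% of the counts of the MLKL ASO mice and 0.246%, 0.251% and 0.281% of those of the control ASO mice. Most of these counts came from Egr1, Nr4a1, Ier2 and Btg2, all of them members whose groups did not overlap.

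**Figure D3:**
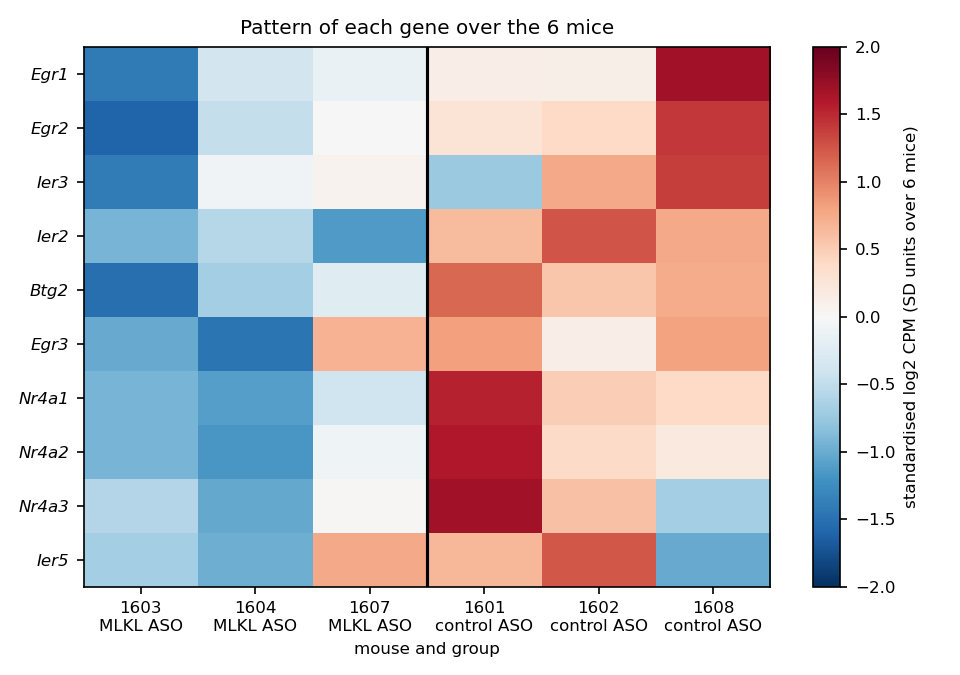
Standardised log2 CPM of each member (rows) in each mouse (columns, MLKL ASO left of the line, control ASO right of it), in SD units over the 6 mice, with rows placed so that like patterns are neighbours. Egr1, Egr2 and Ier3 are highest in control mouse 1608, Nr4a1, Nr4a2, Nr4a3, Egr3 and Btg2 in control mouse 1601, and Ier5 does not follow the groups.

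Lymphocyte markers were highest in mouse 1601, as were the 3 Nr4a genes, Egr3 and Btg2, and the summed macrophage and monocyte markers (987 CPM). The summed endothelial markers were highest in mouse 1608, where Egr1, Egr2 and Ier3 were highest too. These markers came to 2611, 3690 and 4851 CPM in control ASO mice 1601, 1602 and 1608. The summed dendritic cell markers were also highest in mouse 1608 (204 CPM). Lowest in that mouse were the summed neutrophil (216 CPM), megakaryocyte and platelet (103 CPM) and reticular fibroblast markers (145 CPM). The mean log2 CPM of the T, NK and B cell markers was 4.48, 4.55 and 4.74 in MLKL ASO mice 1603, 1604 and 1607, against 6.20, 5.30 and 5.06 in control ASO mice 1601, 1602 and 1608. As these values do not overlap between the groups, a fit that holds them constant leaves little to compare, and its standard errors are mostly wider. In that fit the log2 fold changes were -0.30 ± 0.17 for Nr4a1, -0.049 ± 0.21 for Nr4a2 and 0.35 ± 0.37 for Nr4a3 (± standard error, n = 6 mice). The values in that fit were -0.98 ± 0.19 for Ier2, -1.41 ± 0.49 for Egr1, -1.16 ± 0.46 for Egr2 and -1.37 ± 0.44 for Ier3 (± standard error). Egr3 was at -0.27, Btg2 at -0.29 and Ier5 at 0.11. No member passed the threshold in it (0 of 10), and at an unadjusted p under 0.05 Egr1, Egr2, Ier2 and Ier3 were lower (unadjusted edgeR p of 0.0258, 0.0408, 0.00180 and 0.0184), as were 7.69% of all genes in the same fit. The difference between the Nr4a genes and the other members was not tested, and neither was the part of lymphocytes or of any other cell type in these levels. With libraries scaled to endothelial markers the log2 fold changes were -0.75 for Egr1, -0.85 for Nr4a1 and -0.76 for Ier2.

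**Figure D4:**
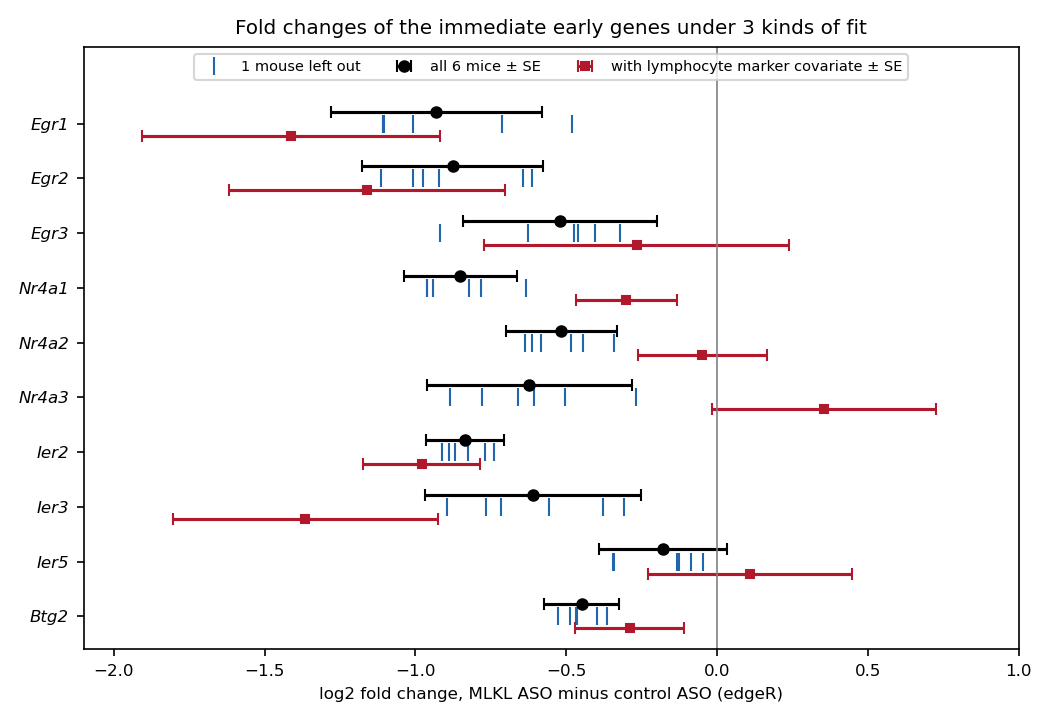
Log2 fold change of each member, MLKL ASO minus control ASO, with all 6 mice (black, ± SE), with each mouse left out in turn (blue ticks) and with a lymphocyte marker covariate (red, ± SE). Nr4a1, Nr4a2, Egr3 and Btg2 lie nearer to 0 and Nr4a3 and Ier5 above 0 with the covariate, while Egr1, Egr2, Ier2 and Ier3 lie further below 0.

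Among 40 other immediate early genes, 35 had a log2 fold change below 0, with a median of -0.43. None of them passed in edgeR (0 lower, 0 higher). At an unadjusted p under 0.05, 17 were lower and 0 higher, beside 7.13% and 4.86% of all genes. DESeq2 called 4 lower and limma-voom 1, beside 1.33% and 0.0760% of all genes. Groups did not overlap in 16, all lower in MLKL ASO mice, beside the 10% of all genes given above. Junb, a subunit of the AP-1 transcription factor, measured 690 ± 71.7 CPM with the MLKL ASO and 1777 ± 335 CPM with the control ASO (SD, n = 3 each), a log2 fold change of -1.36 ± 0.17 (SE, edgeR adjusted p = 0.104). Socs3, a feedback inhibitor of cytokine receptors, measured 32.1 ± 3.89 and 77.4 ± 32.4 CPM in the MLKL ASO and control ASO groups (edgeR adjusted p = 0.270). Gadd45b, a stress sensor, measured 36.8 ± 7.75 CPM with the MLKL ASO and 59.7 ± 2.43 CPM with the control ASO (edgeR adjusted p = 0.287). DESeq2 called Junb, Socs3 and Gadd45b lower (DESeq2 adjusted p of 2.50e-08, 0.00440 and 0.0286 in that order). The gene called by limma-voom was Junb (limma-voom adjusted p = 0.0461).

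None of the relatives, partners, upstream factors or kinases below passed in edgeR, DESeq2 or limma-voom (0 in each list). Of 5 relatives measured, 4 had log2 fold changes under 0 (median -0.31). At an unadjusted p under 0.05, 7.13% of all genes were lower and so was 1 relative. That gene was Tob2, an antiproliferative relative of Btg2, with 47.1 ± 2.43 CPM with the MLKL ASO and 62.9 ± 11.2 CPM with the control ASO (edgeR adjusted p = 0.370). Btg1, the closest relative of Btg2, measured 311 ± 87.0 CPM with the MLKL ASO and 403 ± 56.6 CPM with the control ASO, with overlap (edgeR adjusted p = 0.526), and Tob1 58.6 ± 7.11 and 72.8 ± 18.7 CPM (edgeR adjusted p = 0.571). Of 5 partner genes 4 were below 0 with a median of -0.24. At an unadjusted p under 0.05, 2 were lower, beside 7.13% of all genes. These were Nab2 and a gene averaging under 1 CPM, which had a log2 fold change of -1.49 (edgeR adjusted p = 0.359). Nab2, a corepressor of Egr proteins that Egr1 itself induces, measured 4.33 ± 0.464 CPM with the MLKL ASO and 6.31 ± 1.10 CPM with the control ASO (SD, n = 3 each). The groups did not overlap, and its log2 fold change was -0.54 ± 0.22 (SE, edgeR adjusted p = 0.401). Rxra and Rxrb, the retinoid X receptors that pair with Nr4a1 and Nr4a2, measured 8.02 ± 0.387 and 10.4 ± 1.02 CPM with the MLKL ASO and 9.48 ± 1.34 and 11.4 ± 2.66 CPM with the control ASO.

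Genes acting upstream had medians of -0.19 and -0.27. Of 15 transcription factors of the serum response factor, CREB and MEF2 pathways, 12 were below 0 with a median of -0.19. None reached an unadjusted p under 0.05 (0 of 15), where 7.13% of all genes were lower and 4.86% higher. Crtc2, a coactivator of CREB, had the lowest adjusted p and measured 15.8 ± 2.33 CPM with the MLKL ASO and 23.8 ± 7.87 CPM with the control ASO (edgeR adjusted p = 0.417). Mef2d, a factor that drives Nr4a1 in T cells, measured 15.3 ± 1.57 and 19.1 ± 0.950 CPM, and Mrtfa, a coactivator of serum response factor, 5.72 ± 1.27 and 8.97 ± 3.11 CPM, in the MLKL ASO and control ASO groups in that order. Of 8 genes of the ERK cascade, 7 were below 0 with a median of -0.27. At an unadjusted p under 0.05, 1 of these was lower and 0 higher, beside 7.13% and 4.86% of all genes. Map2k1, a kinase of this cascade, measured 60.6 ± 4.39 CPM with the MLKL ASO and 76.1 ± 13.5 CPM with the control ASO, with overlap (edgeR adjusted p = 0.447). Araf, another of its kinases, measured 94.5 ± 2.75 CPM with the MLKL ASO and 109.5 ± 7.08 CPM with the control ASO, without overlap (edgeR adjusted p = 0.469). mRNA levels of these kinases do not measure their activity.

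Of 10 genes known as Egr1 targets, 9 were below 0 with a median of -0.17. At an unadjusted p under 0.05, 2 were lower and 1 higher, beside 7.13% and 4.86% of all genes. The 2 lower were Pdgfb and Nab2, the latter counted above as a partner. Among the 10, edgeR and limma-voom called 0 and DESeq2 called Pdgfb alone, beside 1.33% of all genes lower. Pdgfb, a growth factor by which endothelium recruits pericytes, measured 8.88, 8.65 and 8.95 CPM in MLKL ASO mice 1603, 1604 and 1607, against 14.4, 17.7 and 16.1 CPM in control ASO mice 1601, 1602 and 1608. It varied little within either group, and its log2 fold change was -0.87 ± 0.15 (SE, edgeR adjusted p = 0.192, DESeq2 adjusted p = 1.06e-05). Thbs1, the matrix protein thrombospondin that platelets also carry, lay the other way, at 74.9, 145 and 107 CPM with the MLKL ASO, against 63.7, 68.3 and 58.2 CPM with the control ASO (edgeR adjusted p = 0.339). The summed megakaryocyte and platelet markers were 1329 to 2779 CPM in MLKL ASO mice and 103 to 1504 CPM in control ASO mice, and their part in the Thbs1 level was not tested.

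Btg2 lay opposite to most other p53 targets listed here. Of 12 such genes 9 were above 0 (median 0.39, log2 scale). The list was chosen with earlier results of these data known, so its counts are a description. At an unadjusted p under 0.05 there were 6 higher and 0 lower, beside 4.86% of all genes higher. In 6 of them the groups did not overlap, all higher in MLKL ASO mice, which was so for 8.73% of all genes. Eda2r, a receptor of the TNF receptor family, measured 14.9 ± 2.26 CPM with the MLKL ASO and 2.08 ± 1.04 CPM with the control ASO, a log2 fold change of 2.85 ± 0.36 (SE, edgeR adjusted p = 0.104). Zmat3, an RNA-binding protein, measured 9.05 ± 1.62 and 3.40 ± 0.241 CPM in the MLKL ASO and control ASO groups (edgeR adjusted p = 0.146), and Aen, an apoptosis-enhancing nuclease, 52.5 ± 4.89 and 38.0 ± 2.84 CPM (edgeR adjusted p = 0.323). None of the 12 passed in edgeR (0), and limma-voom called 1 higher, as it did 9 of all 19741 genes. DESeq2 called 3 higher, beside 1.09% of all genes. Btg2 had a DESeq2 adjusted p of 0.106 and a log2 fold change below 0.

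**Figure D5:**
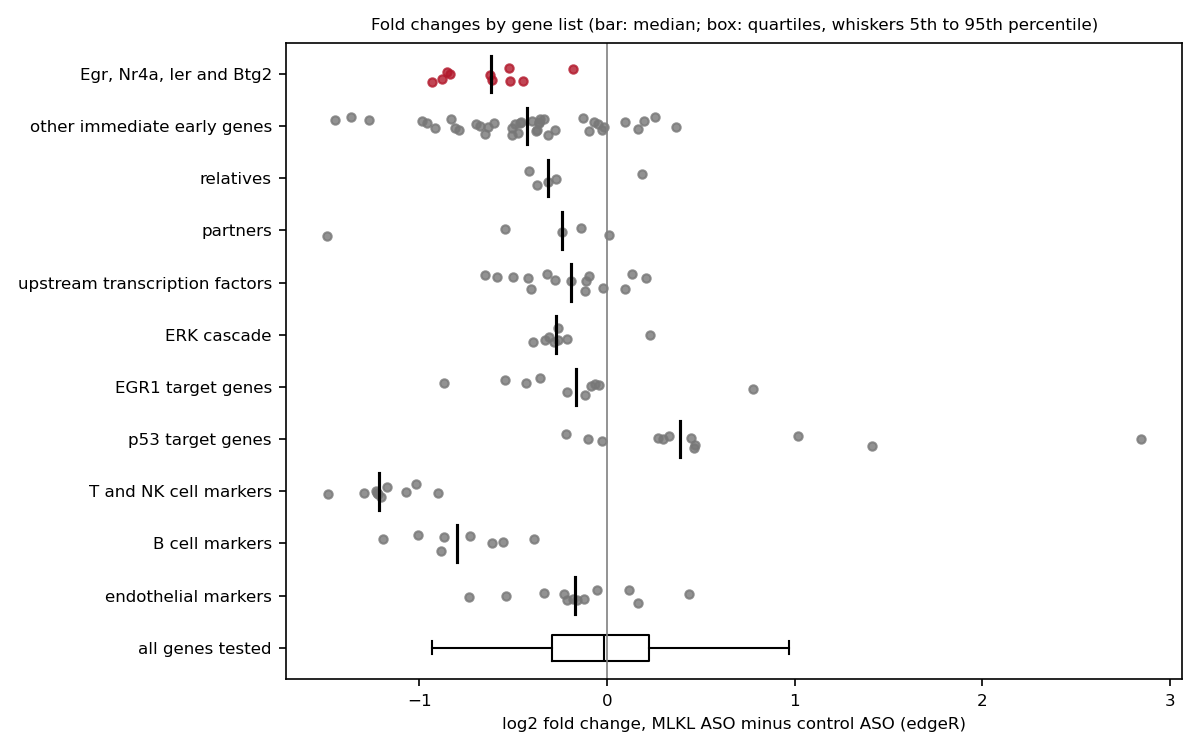
Log2 fold changes (horizontal axis, MLKL ASO minus control ASO) of single genes (points) by list, with the list's median as a black bar and all 19741 genes as a box of quartiles with whiskers from the 5th to the 95th percentile. The 10 members have a median of -0.62, the 40 other immediate early genes of -0.43 and the 12 p53 targets of 0.39.

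The genes whose pattern over the 6 mice was nearest to the members' mean pattern were Spty2d1, Hint3, Gadd45b, Slc7a6, Kdm6b and Ero1b. Nearness was the distance between standardised log2 CPM profiles among 9486 genes averaging 10 CPM or more. The distance was 0.324 for Spty2d1 and 0.508 for Ero1b. Among the members, Btg2 stood at 0.465 and the others at 0.906 (Nr4a1) to 2.12 (Ier5). The mean pattern includes the members themselves, so their distances are not comparable with those of other genes. Spty2d1, a histone chaperone, measured 43.8 ± 3.92 CPM with the MLKL ASO and 52.0 ± 0.187 CPM with the control ASO. Kdm6b, a demethylase of histone H3 that inflammatory signals induce, measured 50.6 ± 5.86 CPM with the MLKL ASO and 65.1 ± 1.70 CPM with the control ASO. Slc7a6, an amino acid transporter subunit, measured 10.4 ± 1.72 CPM with the MLKL ASO and 15.1 ± 0.676 CPM with the control ASO. All 6 were chosen for this pattern, so their differences are a description.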

How the data were processed

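RNA came from a Direct-zol extraction and went into directional NEBNext mRNA libraries, per the labels' protocols. Per the submitters' processing notes, the tools were fastp 0.20.1, Salmon 1.3.0 and DESeq2. No genome build or annotation is named in the sources used here. The authors deposited a table of estimated counts (69.3% of values not whole). They also deposited a DESeq2 table that holds, per the file headers, a mean normalised signal, a Wald score, a p-value (raw and adjusted), and a log2 fold change beside its standard error. Across 19724 genes its log2 fold changes and those computed here had a Pearson r of 0.978 (a check of direction across genes): positive is higher with the MLKL ASO.

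Estimated counts were rounded. Rows whose symbol is a number (4 rows, at most 0.00173% of a library) were left out. In R 4.3.3, edgeR 4.0.16 kept 19741 genes by its default filter, scaled by TMM and fitted the quasi-likelihood test (two-sided, Benjamini-Hochberg over all genes tested, threshold 0.05). The standard error is the log2 fold change over the root of F. CPM use TMM-scaled totals and are given as mean ± SD. Levels are not per length and are not compared between genes. DESeq2 1.42.0 and limma 3.58.1 (voom) were alternatives, as were other scalings and filters, a robust fit, a covariate of lymphocyte markers and leaving out each mouse. Tests were tested on simulated data. Labels name no batch and no shared replicate number.

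The members and lists were chosen with earlier results of these data known. The genes named are the members, Mlkl, up to 3 genes per list with the smallest p and a mean of at least 1 CPM, the 6 nearest profiles and defining markers. A gene that this rule names is not reported here. Counts per list cover all its genes in the table. Promoter sequences and motif shares come from RefSeq (GRCm38.p6), with exons from GENCODE M21.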

Additional observations from a re-analysis of the deposited data

How the results depend on the processing

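The direction and side of the threshold were the same as reported in 155 of 160 repeats of the members' log2 fold changes (10 members, 16 alternatives). The exceptions were Ier2 with DESeq2 and limma-voom and Nr4a1 with DESeq2, which passed the threshold, and Nr4a3 (0.35) and Ier5 (0.11) with the lymphocyte marker covariate, which changed sign. The cause was not tested. Few genes of any kind passed in most of these fits, so the side of the threshold could hardly change. Sizes moved within the 155, from -1.41 to -0.48 for Egr1 and from -0.64 to -0.049 for Nr4a2. Members called lower numbered 0 in edgeR, 2 in DESeq2 and 1 in limma-voom. The members' median was -0.29 with the covariate, against -0.62 as reported, and -0.78 to -0.55 when 1 mouse was left out. Members whose groups did not overlap numbered 2 with endothelial marker scaling and 6 to 7 when 1 mouse was left out, where the share of all genes apart in that direction was 13.6% to 18.1%, above that with all mice. Over all genes, edgeR called 1 lower and 1 higher. These counts were 2 and 2 with upper quartile scaling, 4 and 5 with library totals only, 290 and 237 in DESeq2, 15 and 9 in limma-voom, 0 and 0 with the covariate, 0 to 9 and 0 to 10 when 1 mouse was left out (highest without control mouse 1608), and 5 higher with endothelial marker scaling. No paired analysis was possible because the groups share no mouse number. The lowest estimated count of a member in any library was 194.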
